A study of Mus musculus with 47 samples.

Results

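Replication-dependent histone genes encode the linker histone H1 and the core histones H2A, H2B, H3 and H4 that package newly copied DNA. They were followed here in E14Tg2A, a line of mouse embryonic stem cells (ESCs), after knockdown of Tdg by siRNA (siTdg) or transfection of a control siRNA (siC). Tdg encodes thymine DNA glycosylase, a repair enzyme that removes thymine and oxidised forms of 5-methylcytosine from DNA, and the title of the series names the regulation of p53 over the cell cycle as its subject. Members were chosen by symbol, as every gene whose name begins with Hist1h, Hist2h, Hist3h or Hist4h, or with the newer H1f1 to H1f6, H2ac, H2bc, H3c or H4c, without pseudogene names. This gave 68 of the 24507 genes in the tables of unsorted cells, of which 6 encode H1, 19 H2A, 18 H2B, 12 H3 and 13 H4. By symbol 55 belong to the Hist1 group, 10 to Hist2, 2 to Hist3 and 1 to Hist4. The tables of sorted cells list 26182 genes under newer names, where 63 members matched by name and the other 5 by a RefSeq synonym. The letters of the rule also match H1f10 (older name H1fx) there, which encodes a linker histone made outside S phase, and it is given apart. RefSeq now names Hist1h2al as H2af-ps2, a pseudogene name, and it stays in since its symbol in the files has no such mark.

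RNA of 20 libraries was analysed, in 10 groups of 2, from a series of 47 samples. The groups were ESCs at 48 h with siTdg and with siC, ESCs at 96 h with siTdg and with siC, embryoid bodies (EBs, the free-floating aggregates used for differentiation) at day 11 from ESCs that had received siTdg or siC, and the sorted fractions G2M and G1 of ESCs with siTdg and with siC. Per the labels' protocols ESCs were kept in N2B27 medium with PD0325901, CHIR99021 and LIF, and libraries were made from total RNA after depletion of ribosomal RNA, with no selection for poly(A) named. The study's notes use SG2M for cells in S, G2 and M and G1 for cells in G1, and whether the fractions labelled G2M also hold S phase cells is not told. The labels name a single cell line and do not tell whether a group's 2 libraries are separate cultures. The p-values here therefore rest on differences between libraries that may be no more than technical. Libraries held 20818174 to 41433232 reads assigned to genes. The target checked the labels at 48 h and in sorted cells, in RPKM (reads scaled to gene length and to a size factor of each library). At 48 h Tdg was at 7.34 and 13.2 RPKM with siTdg, against 46.0 and 43.4 RPKM with siC. In sorted cells it was at 7.53 to 12.3 RPKM with siTdg, against 54.8 to 63.1 RPKM with siC. At 96 h it was at 28.2 and 40.3 RPKM with siTdg, against 35.8 and 46.0 RPKM with siC, and in EBs at 37.3 and 43.7 RPKM with siTdg, against 35.1 and 38.5 RPKM with siC. The 7 ESC markers summed to 1950 to 2832 RPKM in ESCs and to 12.0 to 25.2 RPKM in EBs.

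Transcripts of these genes are the known exception among messenger RNAs in that they end in a stem-loop and not in a poly(A) tail. The stem-loop is bound by SLBP, the stem-loop binding protein, which is needed for 3′ end formation, export and translation. Transcription is switched on at S phase entry through NPAT, a co-activator that sits at the histone gene clusters and is phosphorylated by cyclin E with CDK2, and the transcripts are degraded when DNA synthesis ends. In human cells a few members, among them HIST1H1C, HIST1H2BC, HIST2H2BE, HIST1H2BK and HIST1H2AC, are known to give polyadenylated transcripts as well, which persist outside S phase. Replication-independent histones such as H2A.Z (H2afz) and H3.3 (H3f3a and H3f3b) come from ordinary genes with introns and poly(A) tails.

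All 68 members together took 19.1 to 46.7 RPM (reads scaled to the gene-assigned total of each library, with no scaling for gene length) in ESC libraries and 75.6 to 105.2 in EB libraries. The 11 genes of the replication-independent histone list took 2228 to 3692 RPM in the ESC libraries and 2735 to 7029 in EBs. Per length the gap was of the same kind: in ESCs H2afz stood at 673 to 1500 RPKM and H3f3a at 179 to 488 RPKM, while the median member averaged 0.496 RPKM over the 48 h libraries and 0.557 RPKM over the 96 h libraries. The highest member in ESCs was Hist1h2bc, an H2B gene, with 3.23 RPKM on average at 48 h and 3.75 RPKM at 96 h, which rests on 302 and 339 reads over the 4 libraries of each time. Members at an average of at least 0.5 RPKM numbered 34 at 48 h, 39 at 96 h, 45 in EBs, 46 in the sorted siTdg table and 49 in the sorted siC table. Fewer than 20 reads a library on average lay behind 55 of the 68 members in the 8 unsorted ESC libraries, behind 52 in the 8 sorted libraries and behind 40 in the 4 EB libraries.

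**Figure D1:**
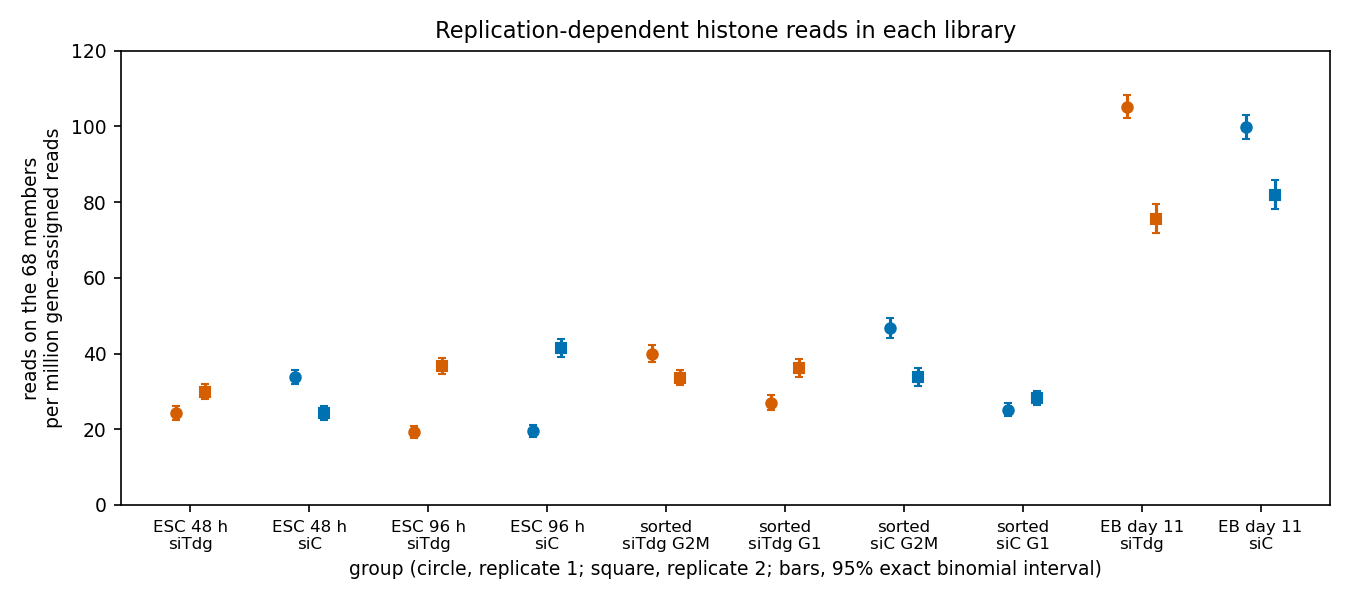
RPM on the 68 members (y axis) in each of the 20 libraries (x axis, by group), with 95% exact binomial intervals that cover counting error only. EB libraries lie at 75.6 to 105.2 and ESC libraries at 19.1 to 46.7, with both replicate 2 libraries of 96 h at 36.7 and 41.3 beside replicate 1 libraries at 19.1 and 19.5.

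No reads at all were counted in any of the 20 libraries on 7 members, which are Hist1h2ao, Hist1h2ap, Hist1h2bq, Hist1h2br, Hist2h2aa1, Hist2h3c1 and Hist2h3c2. A count of 0 allows up to 0.0724 RPM in the deepest library and up to 0.144 in the shallowest. Histone genes of one class share long stretches of near-identical coding sequence, and how reads that match several copies were treated is not given in the sources used here, so a 0 may belong to the counting and the split of reads between copies is uncertain. The promoter windows of Hist1h2bq and Hist1h2br in RefSeq were identical in all 300 bases. Hist1h4m, an H4 gene, had 0 reads in the 12 ESC and EB libraries but 0.347 to 1.36 RPKM in the sorted ones, whose tables use a newer naming of genes. The testis types were close to absent: Hist1h1t, the H1 of male germ cells, had 5 reads over the 12 ESC and EB libraries and 17 over the sorted ones, and Hist1h2aa had 7 and 4. Hist1h2ba, the testis H2B, lay at 0.158 to 0.923 RPKM in the unsorted ESC libraries, and it comes up again in EBs.

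The sort by cell cycle phase asks whether these S phase transcripts differ between cells with copied DNA and cells before replication. In siC cells the members together took 46.7 and 33.7 RPM in G2M, against 25.1 and 28.2 in G1, so both G2M libraries lay above both G1 libraries. The mean was 40.2 ± 9.14 in G2M and 26.6 ± 2.17 in G1 (SD, n = 2 each), a ratio of 1.51. In these bulk samples more cells that express a gene and more RNA per cell cannot be told apart.

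By class the ratio of G2M to G1 lay between 1.18 and 1.99, and the difference between classes was not tested. H4, which pairs with H3 at the core of the nucleosome, took 9.49 and 5.18 RPM in siC G2M, against 3.13 and 4.26 in siC G1, a ratio of means of 1.99. H3 took 5.85 and 4.69 in siC G2M, against 3.01 and 3.25 in siC G1, a ratio of 1.68. H2A took 12.9 and 10.7 in siC G2M, against 6.35 and 8.51 in siC G1, a ratio of 1.59. In these classes no library of one phase overlapped with the other phase. Linker H1 genes took 6.27 and 4.03 in siC G2M, against 3.35 and 3.42 in siC G1, a ratio of 1.52. H2B genes took 12.2 and 9.17 in siC G2M, against 9.27 and 8.74 in siC G1, where the phases overlapped and the ratio was 1.18. The siC G2M libraries stood far apart on H4, with replicate 1 the higher.

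**Figure D2:**
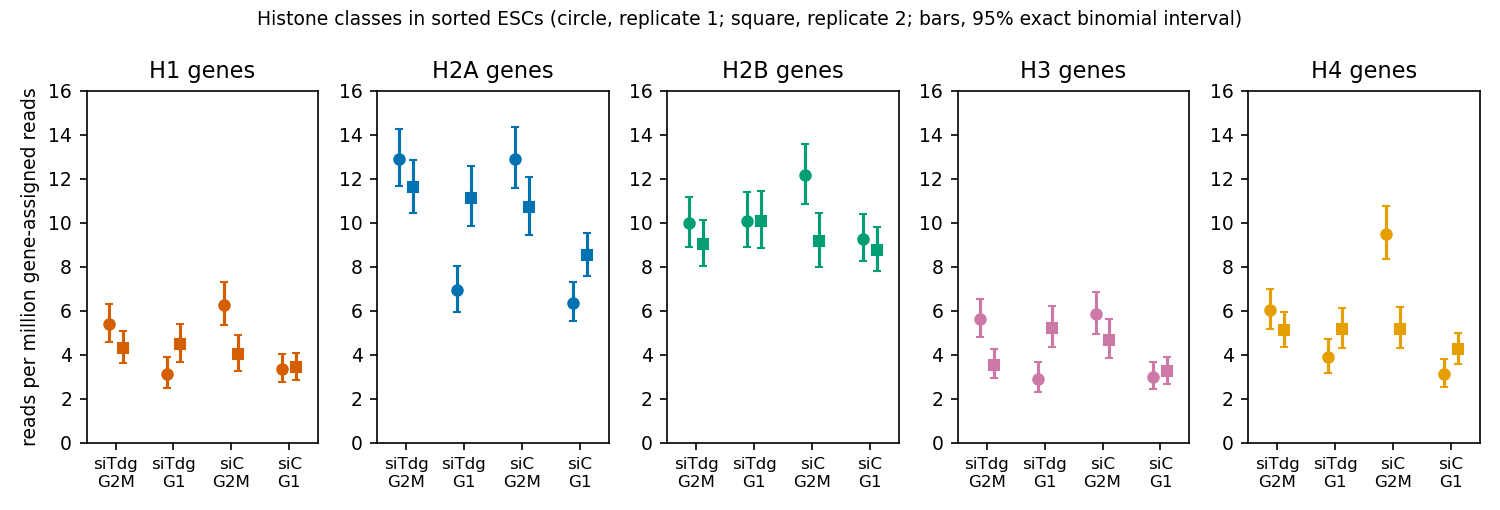
RPM on the members of each class (y axis, one panel per class) in the sorted libraries of siTdg G2M, siTdg G1, siC G2M and siC G1 (x axis), with circles for replicate 1 and squares for replicate 2. In H3 the siTdg libraries of both phases overlap, at 5.62 and 3.55 in G2M and 2.92 and 5.23 in G1, while siC G2M libraries at 5.85 and 4.69 lie above siC G1 libraries at 3.01 and 3.25.

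At least 20 reads over the 4 siC sorted libraries were counted on 55 members, of which 53 had the higher mean in G2M (96.4%, against 50.8% of all genes with as many reads). In 34 of them both G2M libraries lay above both G1 libraries, and in 1, Hist2h2be, both lay below; among all genes 20.7% and 20.2% lay so. By class, the mean was higher in G2M for 5 of 5 H1 genes, 13 of 13 H2A genes, 13 of 15 H2B genes, 10 of 10 H3 genes and 12 of 12 H4 genes. The groups compared with limma on log2(RPKM + 0.5) held 47 members, those averaging at least 0.5 RPKM over the 8 sorted libraries. The minimum of 20 reads, here and below, was summed over the libraries compared, for members as for all genes. A member can pass either filter through the phase in which it is higher. Counts over the 55 and over the 47 therefore describe them and are no test. Of the 47, 46 were above 0 for G2M over G1, with a median log2 difference of 0.59, against 0.02 over all genes tested. None of the 47 passed an adjusted p of 0.05, where 15 of the 12462 genes did (0.12%). At an unadjusted p under 0.05, 15 members were higher in G2M and 0 lower, against 4.28% and 3.84% of all genes. The median of all 47 was 0.36 without replicate 1 of siC G2M, with 41 above 0, and 0.48 to 0.69 without any other library. With replicate number as a block, a pairing the labels do not state, limma called 4 of the 47 higher. These 4 were Hist1h2bf, Hist1h4h, Hist1h1e and Hist1h2bk. Of all 12462 genes it called 346 higher and 268 lower, which is 4.93% in both directions together.

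The 3 members with the smallest p in that comparison belong to 3 classes and show how few reads stand behind even these; Hist1h2bf and Hist1h4h were chosen after their values were seen. Hist1h2bf, an H2B gene, was at 1.15 and 1.03 RPKM in siC G2M, against 0.335 and 0.314 RPKM in siC G1, which is 13 and 11 reads against 5 and 5. Its log2 difference was 0.94 ± 0.15 (SE), with a limma adjusted p of 0.118. Hist1h4h, an H4 gene, was at 2.18 and 1.64 RPKM in siC G2M, against 0.621 and 0.841 RPKM in siC G1, a log2 difference of 0.96 ± 0.18 (SE) with a limma adjusted p of 0.188. Hist1h1e, which encodes the linker histone H1.4, was at 1.51 and 1.13 RPKM in siC G2M, against 0.499 and 0.576 RPKM in siC G1, a log2 difference of 0.80 ± 0.17 (SE) with a limma adjusted p of 0.258. In all 3 genes the phases did not overlap.

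The promoters of these 3 genes show some of the elements that histone classes are known for, and are given for that reason, from RefSeq on build GRCm38.p6, from 250 bases before to 50 bases after the gene start on the gene's own strand. Capitals mark every match, on either strand, of CCAAT (bound by NF-Y), TATAAA (a form of the TATA box), AAACACA (the box of H1 promoters), GGTCCG (part of the site of the H4 factor HINFP), ATTTGCAT (the octamer bound by OCT1) and TTTGGCGC or TTTCGCGC (E2F sites). Only these exact letters were searched, so other forms of an element are not marked.
Hist1h1e promoter, chr13:23622509-23622808, minus strand: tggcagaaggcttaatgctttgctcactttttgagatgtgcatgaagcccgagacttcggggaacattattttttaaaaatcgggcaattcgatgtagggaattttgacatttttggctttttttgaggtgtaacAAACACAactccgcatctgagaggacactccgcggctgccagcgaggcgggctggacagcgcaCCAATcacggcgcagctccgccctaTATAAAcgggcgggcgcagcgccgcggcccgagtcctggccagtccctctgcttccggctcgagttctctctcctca
Hist1h2bf promoter, chr13:23574158-23574457, minus strand: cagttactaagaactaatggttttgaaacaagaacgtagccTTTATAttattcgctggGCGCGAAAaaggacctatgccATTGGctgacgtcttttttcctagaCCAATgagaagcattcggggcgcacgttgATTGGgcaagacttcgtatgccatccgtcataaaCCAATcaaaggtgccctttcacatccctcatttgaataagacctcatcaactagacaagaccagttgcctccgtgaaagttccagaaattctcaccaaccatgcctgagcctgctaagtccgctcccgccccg
Hist1h4h promoter, chr13:23530794-23531093, plus strand: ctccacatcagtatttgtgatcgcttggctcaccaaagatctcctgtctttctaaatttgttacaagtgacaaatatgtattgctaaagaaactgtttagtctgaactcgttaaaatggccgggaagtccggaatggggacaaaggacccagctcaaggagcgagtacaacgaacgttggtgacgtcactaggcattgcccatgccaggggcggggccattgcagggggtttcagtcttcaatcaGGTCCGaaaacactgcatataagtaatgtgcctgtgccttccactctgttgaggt
Hist1h1e holds AAACACA at -115, CCAAT at -52 and TATAAA at -27 from its start. Hist1h2bf holds CCAAT at -146 and -83, and on the opposite strand CCAAT at -171 and -117, TATAAA at -209 and TTTCGCGC at -192. Hist1h4h holds GGTCCG at -5. Windows were found for 62 of the 68 members (63 windows, since a gene can have more than 1), and Hist1h2bc, Hist1h2al, Hist1h3a, Hist1h3f, Hist2h2be and Hist2h4 have none in the table.

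Over these 63 windows CCAAT was present in 85.7%, against 37.4% of all 32851 promoters of the same length, and it was in all windows of H1, H2A, H2B and H3 genes but in 3 of 12 of H4 genes. TATAAA was present in 55.6% of members' windows, against 13.6% of all. The octamer ATTTGCAT was present in 22.2%, against 1.74% of all, in 7 of 18 H2A windows and 7 of 17 H2B windows. GGTCCG was present in 20.6%, against 8.25%, and in 11 of 12 H4 windows. AAACACA was present in 14.3%, against 7.18%, and in 5 of 6 H1 windows. TTTCGCGC was present in 14.3%, against 0.323%, and TTTGGCGC in 0% of members' windows, against 0.514%. A match describes letters in the window and says nothing of a factor's binding here. H2A and H2B genes also lie head to head: 10 pairs start 164 to 281 bases apart on opposite strands, among them Hist1h2bf and Hist1h2ad at 174 bases, so that the windows of a pair overlap. In the window of Hist1h2bf the opposite-strand TATAAA at -209 and TTTCGCGC at -192 lie past the start of Hist1h2ad, on its transcribed side.

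Among other members the siC G2M libraries often stood further apart. Hist1h4d was at 3.34 and 1.56 RPKM in siC G2M, against 0.746 and 0.980 RPKM in siC G1. Hist2h2bb, an H2B gene of the smaller Hist2 cluster, was at 3.52 and 1.19 RPKM in siC G2M, against 0.791 and 0.799 RPKM in siC G1. Hist1h4k was at 2.89 and 1.13 RPKM in siC G2M, against 0.880 and 0.894 RPKM in siC G1. In these 3 genes the phases did not overlap, but the difference came mostly from replicate 1 of siC G2M, and limma gave adjusted p of 0.646, 0.511 and 0.707.

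That same library had the most RNA of the small structured genes Rmrp, at 18.5 RPKM, against 3.66 RPKM in the other siC G2M library and 0.873 and 2.56 RPKM in siC G1, and of Rpph1, at 15.7 RPKM, against 3.10 RPKM in the other siC G2M library and 3.88 and 2.94 RPKM in siC G1. Both are short transcripts without a poly(A) tail, were looked at after the values were seen, and their part in the histone values was not tested.

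Against this pattern stood Hist1h2bc, the member with the most reads in ESCs. It was at 3.62 and 2.27 RPKM in siC G2M, against 4.65 and 3.60 RPKM in siC G1, a log2 difference of -0.44 ± 0.20 (SE) with a limma adjusted p of 0.664. Hist1h1c, which encodes the linker histone H1.2, was at 2.56 and 2.14 RPKM in siC G2M, against 2.40 and 1.98 RPKM in siC G1, a log2 difference of 0.08. Hist2h2be was at 0.237 and 0.204 RPKM in siC G2M, against 0.517 and 0.327 RPKM in siC G1. In none of these 3 genes was siC G2M above siC G1 by more than the spread of its libraries. By symbol all 3 are counterparts of human genes named above for polyadenylated transcripts, but other such counterparts were not alike. Hist1h2bk was at 2.05 and 2.26 RPKM in siC G2M, against 0.960 and 1.29 RPKM in siC G1, without overlap, and Hist1h2ac was at 2.51 and 1.72 RPKM in siC G2M, against 0.985 and 1.73 RPKM in siC G1, with overlap.

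In siTdg cells the members together took 39.9 and 33.6 RPM in G2M, against 26.9 and 36.1 in G1, so the phases overlapped. The mean was 36.8 ± 4.47 in siTdg G2M and 31.5 ± 6.48 in siTdg G1 (SD, n = 2 each), a ratio of 1.17. The ratios of means by class were 1.36 for H2A, 1.27 for H1, 1.23 for H4, 1.12 for H3 and 0.942 for H2B. H2A took 12.9 and 11.6 RPM in siTdg G2M, against 6.93 and 11.1 in siTdg G1, so G2M was higher without overlap. H2B took 9.97 and 9.035 in siTdg G2M, against 10.08 and 10.09 in siTdg G1, so G2M was lower without overlap. In H1, H3 and H4 the phases overlapped. Within the H2B sum Hist1h2bc took 2.07 and 2.10 RPM in siTdg G2M, against 2.96 and 2.87 in siTdg G1. By limma 9 of 12 tested H2B genes were above 0, while 6 of 15 with at least 20 reads had the higher mean in G2M. Without Hist1h1c, Hist1h2bc, Hist3h2a and Hist3h2ba, left out after their values were seen, the ratio was 1.23 with siTdg and 1.67 with siC. Of 55 members with at least 20 reads 39 had the higher mean in siTdg G2M (70.9%, against 49.8% of all genes); in 20 both G2M libraries lay above both G1 libraries and in 4 (Hist1h2bc, Hist1h4i, Hist2h2be and Hist4h4) both lay below, against 18% and 16.4% of all genes. In limma 37 of 47 members were above 0, with a median log2 difference of 0.26, against 0.02 over all genes. None of the 47 passed an adjusted p of 0.05, where 0.169% of all genes did, and 5 members were higher at an unadjusted p under 0.05 and 0 lower, against 6.76% and 3.2% of all genes. These 5, Hist1h1e, Hist1h2an, Hist1h2bb, Hist1h2bf and Hist1h2bk, stand near that background as a share. Without replicate 1 of siTdg G1 the median was 0.12, with 27 of 47 above 0, and without replicate 1 of siTdg G2M it was 0.16. The median was 0.46 without replicate 2 of siTdg G1 and 0.40 without replicate 2 of siTdg G2M. With the replicate block limma called 3 of the 47 higher (Hist1h1e, Hist1h2bb and Hist1h2bk). Of all 12462 genes it called 699 higher and 286 lower, which is 7.9% in both directions together.

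Among single members Hist1h1e was at 1.61 and 1.21 RPKM in siTdg G2M, against 0.615 and 0.752 RPKM in siTdg G1, a log2 difference of 0.69 ± 0.17 (SE) with a limma adjusted p of 0.277. Hist1h2bb, chosen for its small p, was at 0.972 and 1.16 RPKM in siTdg G2M, against 0.302 and 0.428 RPKM in siTdg G1, a log2 difference of 0.86 ± 0.22 (SE) with a limma adjusted p of 0.294. Both keep G2M apart from G1. The H2A genes Hist1h2an, Hist1h2af and Hist1h2ac also had both G2M libraries above both G1 libraries. Hist1h2an was at 2.65 and 2.13 RPKM in siTdg G2M, against 1.01 and 1.59 RPKM in siTdg G1, with a limma adjusted p of 0.447. Hist1h2af was at 2.50 and 2.20 RPKM in siTdg G2M, against 1.03 and 1.83 RPKM in siTdg G1. Hist1h2ac was at 2.31 and 2.08 RPKM in siTdg G2M, against 0.835 and 1.98 RPKM in siTdg G1. In both genes the low value was in replicate 1 of siTdg G1. Hist1h2bc was at 2.73 and 2.74 RPKM in siTdg G2M, against 3.63 and 3.74 RPKM in siTdg G1, a log2 difference of -0.37 ± 0.20 (SE) with a limma adjusted p of 0.611. Hist2h2be was at 0.255 and 0.237 RPKM in siTdg G2M, against 0.430 and 0.567 RPKM in siTdg G1. In both genes the G1 libraries were the higher ones, without overlap, in siTdg cells as in siC cells for Hist2h2be, whereas the siC phases of Hist1h2bc overlapped at 3.62 and 3.60 RPKM.

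The highest genes of H3 and H4 did not follow their class sums in every case. Hist1h3g, the highest H3 gene, was at 1.24 and 0.836 RPKM in siTdg G2M, against 0.751 and 1.79 RPKM in siTdg G1, and at 1.2 and 1.36 RPKM in siC G2M, against 0.975 and 1.32 RPKM in siC G1. Hist1h4i, the highest H4 gene, was at 1.35 and 1.02 RPKM in siTdg G2M, against 1.38 and 1.56 RPKM in siTdg G1, and at 1.66 and 1.14 RPKM in siC G2M, against 1.41 and 0.838 RPKM in siC G1. Hist1h3g overlapped between phases with either siRNA, while Hist1h4i was lower in siTdg G2M without overlap and overlapped in siC cells. Hist1h3e was at 1.08 and 0.590 RPKM in siTdg G2M, against 0.609 and 0.645 RPKM in siTdg G1, and at 1.17 and 0.828 RPKM in siC G2M, against 0.461 and 0.556 RPKM in siC G1. Its log2 difference was 0.22 with siTdg and 0.56 with siC, with limma adjusted p of 0.817 and 0.517. Hist1h2bg, an H2B gene, was at 2.05 and 0.954 RPKM in siTdg G2M, against 1.83 and 1.27 RPKM in siTdg G1, and at 1.45 and 1.72 RPKM in siC G2M, against 0.646 and 0.789 RPKM in siC G1. In these 2 genes the phases overlapped with siTdg and did not with siC. Hist4h4, the single member of the Hist4 group, was at 0.698 and 0.432 RPKM in siTdg G2M, against 1.09 and 0.765 RPKM in siTdg G1, and at 1.53 and 0.764 RPKM in siC G2M, against 0.478 and 0.833 RPKM in siC G1. The difference of its phase differences was -0.91 ± 0.39 (SE), with a limma adjusted p of 0.99998. Hist1h1d, the H1.3 gene, was at 1.18 and 1.14 RPKM in siTdg G2M, against 0.524 and 0.920 RPKM in siTdg G1, and at 1.78 and 1.03 RPKM in siC G2M, against 0.425 and 0.834 RPKM in siC G1, with both G2M libraries above both G1 libraries with either siRNA.

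The phase difference with siTdg was set against that with siC in one model, each formed between libraries that the authors scaled together. Of 47 members 10 had the larger G2M over G1 difference with siTdg, and the median of the difference was -0.27 on the log2 scale, against 0.02 over all genes. By class its median was -0.45 for H4, -0.32 for H3, -0.24 for H2B, -0.17 for H2A and -0.14 for H1. No member passed an adjusted p of 0.05, nor did any of the 12462 genes (0.0%). At an unadjusted p under 0.05, 1 member had the larger difference with siTdg and 2 the smaller, against 0.128% and 0.16% of all genes. Hist1h3a, an H3 gene, was at 0.949 and 0.567 RPKM in siTdg G2M and 0.736 and 0.837 RPKM in siTdg G1, and at 1.10 and 1.17 RPKM in siC G2M and 0.597 and 0.561 RPKM in siC G1. Its phases overlapped with siTdg and not with siC, and the difference of differences was -0.65 ± 0.23 (SE), with p of 0.0284 unadjusted and 0.99998 adjusted by limma. Hist1h2bb had 0.81 ± 0.30 (SE), with p of 0.0335 unadjusted and 0.99998 adjusted by limma, and Hist1h2bf had -0.49 ± 0.21 (SE), with p of 0.0493 unadjusted and 0.99998 adjusted by limma. All 3 were chosen after their values were seen. The median over members was -0.52 without replicate 1 of siTdg G1, -0.06 without replicate 2 of siTdg G1, -0.13 without replicate 1 of siC G2M and -0.46 without replicate 2 of siC G2M, so its size rests on single libraries.

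**Figure D3:**
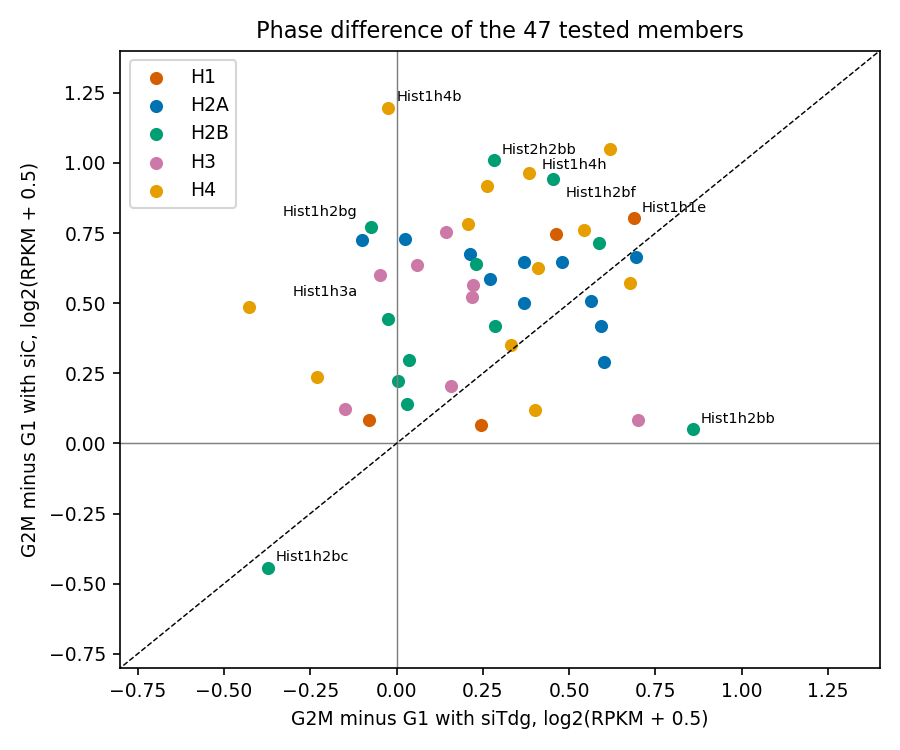
Each point is 1 of 47 members, coloured by class, with its G2M minus G1 difference with siTdg (x axis) and with siC (y axis), both in log2(RPKM + 0.5), and the dashed line marks equal differences. With siTdg 37 members lie above 0 and with siC 46, and 10 have the larger difference with siTdg.

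The authors' own phase tables cover sorted siTdg and siC cells and also fractions at 0 h, whose RPKM columns fit no sample here. The sign of the 0 h table was read from Top2a, a marker of G2 and M whose change was 2.54 in SG2M over G1 after it was set so. In the authors' deposited table of 0 h, 58 of 60 members were above 0 for SG2M over G1, with a median log2 change of 0.87, where 48.1% of all genes were above 0. The authors' deposited table gave 1 member an adjusted p under 0.05, Hist2h2ab, an H2A gene, which rose by 1.51 ± 0.547 (SE) with an adjusted p of 0.0491. Of the 44 members with an adjusted p there it was 1 of 44, against 8.87% of all genes called higher in the authors' deposited table. At an unadjusted p under 0.05 the authors' deposited table had 24 members higher and 1 lower, against 10.9% and 5.26% of all genes. H3 genes led, with 10 of 10 above 0 in the authors' deposited table, a median of 1.25 and 9 at an unadjusted p under 0.05. H2A followed there with 15 of 16 above 0, a median of 0.91 and 11 at that level. H1 had a median of 0.89, H4 0.71 and H2B 0.53 in the authors' deposited table. The 1 lower member was Hist2h2be, at -2.03 ± 0.863 (SE) with an unadjusted p of 0.0186 in the authors' deposited table. In the sorted cells Hist2h2ab had 0 to 7 reads a library and overlapped between phases with either siRNA. It was at 0.290 and 0.270 RPKM in siTdg G2M, against 0.552 and 0.269 RPKM in siTdg G1. With siC it was at 0.252 and 0 RPKM in G2M, against 0.192 and 0.240 RPKM in G1.

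In the authors' deposited table of siTdg phases 43 of 60 members were above 0 (48.8% of all genes), with a median of 0.37 and an adjusted p for 1 member, Hist1h2bc, at -0.43 with an adjusted p of 0.782. At an unadjusted p under 0.05 that table had 0 members on either side, against 6.47% of all genes higher and 1.99% lower. In the authors' deposited table of siC phases 58 of 61 members were above 0 (48% of all genes), with a median log2 change of 0.92 and no member with an adjusted p. There Hist1h4b was at 1.93 ± 0.948 (SE) in the authors' deposited table, with an unadjusted p of 0.0419, the only member under 0.05, with 0 lower, against 7.25% of all genes higher and 3.8% lower. Hist2h2be was at -1.01 with siTdg and -0.91 with siC in the authors' deposited tables. Over all genes with an adjusted p, 5.02% with siTdg and 8.48% with siC were called in the authors' deposited tables. The scale differs from that used above, since no constant was added to the values. Hist1h2bc stood at 0.01 at 0 h and -0.51 with siC in the authors' deposited tables.

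Markers of the rare 2-cell-like state of ESC cultures also stood at different levels between phases and between siRNAs in the sorted cells. The 5 genes of that list, none of them at 0, summed to 32.3 to 34.2 RPKM in siTdg G2M, against 51.6 to 61.4 RPKM in siTdg G1, and to 16.8 to 20.04 RPKM in siC G2M, against 26.3 to 40.9 RPKM in siC G1. By limma 0 of its 4 tested genes were above 0 for G2M over G1 with either siRNA, with medians of -0.73 in both, and 4 of 4 were above 0 for siTdg over siC, with medians of 0.81 within G2M and 0.72 within G1. None passed an adjusted p of 0.05 by limma, and the authors' deposited tables called 3 of the 5 lower in G2M with siTdg and 3 with siC. The part of these markers' cells in the histone values was not tested.

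Genes that act on histone supply or mark the phases were set beside the members. The G2 and M list checked the sort, with 21 of 24 genes above 0 for G2M over G1 in siTdg and in siC cells and 7 called higher by limma in each; Top2a was at 238.7 and 240.4 RPKM in siTdg G2M, against 61.1 and 78.8 RPKM in siTdg G1, and at 234.3 and 226.8 RPKM in siC G2M, against 61.2 and 68.7 RPKM in siC G1. The S phase list of 30 genes did not separate the phases the same way, with a median of -0.11 in siTdg and -0.08 in siC cells and none called by limma. Of its genes, the authors' deposited tables called 2 lower and 1 higher in siTdg G2M and 8 lower and 2 higher in siC G2M, whereas at 0 h they called 16 higher in SG2M and 0 lower. Of the cyclin E genes, which act at S phase entry, Ccne2 was at -0.98 with siTdg and -1.32 with siC by limma, with adjusted p of 0.253 and 0.148, and it fell in the authors' deposited table with siTdg, by 1.13 with an adjusted p of 3.06e-05, and with siC, by 1.53 with an adjusted p of 0.0148. At 0 h Ccne2 was at -0.67 in the authors' deposited table. Ccne1 overlapped between phases with siTdg, at -0.32 (adjusted p of 0.0654), and fell by 0.24 with siC (adjusted p of 0.00901) in the authors' deposited tables.

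Slbp was at 89.2 and 82.4 RPKM in siTdg G2M, against 108.9 and 101.2 RPKM in siTdg G1, and at 82.6 and 83.4 RPKM in siC G2M, against 114.3 and 107.2 RPKM in siC G1. It was thus lower in G2M in both, without overlap, at -0.29 with siTdg and -0.41 with siC by limma, with adjusted p of 0.388 and 0.267. In the authors' deposited table it fell with siC by 0.41, with an adjusted p of 6.56e-07, and at 0 h it was at 0.02. Npat was at 11.5 and 9.22 RPKM in siTdg G2M, against 10.02 and 7.01 RPKM in siTdg G1, and at 11.6 and 9.84 RPKM in siC G2M, against 11.6 and 9.50 RPKM in siC G1, with overlap in both. The 25 genes of the histone supply list, which holds Slbp, Npat, 3′ end factors and chaperones, had medians of 0.001 with siTdg and 0.005 with siC and none called by limma, while the authors' deposited tables called 1 higher and 0 lower with siTdg, 1 and 1 with siC, and 9 and 0 at 0 h. Of the 11 replication-independent histone genes none was called by limma, with medians of 0.06 with siTdg and 0.07 with siC, and the authors' deposited tables called 1 higher and 1 lower with siTdg, 2 and 2 with siC, and 6 and 0 at 0 h. H1f0, the linker histone of resting and differentiated cells, rose in the authors' deposited table by 0.57 with siTdg (adjusted p of 0.00233), by 0.50 with siC (adjusted p of 0.000171) and by 0.53 at 0 h (adjusted p of 0.000293). H1f10 lay at 5.50 to 13.8 RPKM over all 20 libraries.

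Cells with siTdg and with siC were compared at 48 h, at 96 h and in EBs. By the levels given above, Tdg itself was lower with siTdg at 48 h, overlapped between the groups at 96 h and was not lower in EBs. At 48 h the members together took 24.3 and 29.8 RPM with siTdg, against 33.7 and 24.2 with siC. At 96 h they took 19.1 and 36.7 with siTdg, against 19.5 and 41.3 with siC. In EBs they took 105.2 and 75.6 with siTdg, against 99.8 and 81.9 with siC. In all 3 these totals overlapped between the groups, with ratios of means of 0.935, 0.917 and 0.995. Every class overlapped too, except H4 in EBs, at 3.79 and 3.99 with siTdg, against 4.59 and 4.46 with siC. Without Hist1h1c, Hist1h2bc, Hist3h2a and Hist3h2ba, left out after their values were seen, EBs took 35.2 and 33.0 with siTdg, against 36.8 and 38.6 with siC. Neither of these was tested. At 96 h the replicates of either group stood further apart than the groups, with both replicate 2 libraries high, and Rmrp there was at 4.55 and 17.8 RPKM with siTdg, against 6.58 and 17.5 RPKM with siC; its part was not tested.

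By limma 19 of 39 members were above 0 at 48 h, with a median log2 difference of -0.09, against -0.01 over all genes. At 96 h 17 of 39 were above 0, with a median of -0.06, against 0.00. In EBs 17 of 45 were above 0, with a median of -0.08, against 0.02. No member passed an adjusted p of 0.05 in any of the 3, nor did any other gene (0.0%). Tdg itself was at -2.12 at 48 h by limma and was not called, though it was under an unadjusted p of 0.05. The authors' deposited table called it lower. A lack of calls by limma therefore cannot show that members were unchanged. At an unadjusted p under 0.05, 0 members were higher and 0 lower at 48 h (0.164% and 0.279% of all genes), 0 and 1 at 96 h (0.041% and 0.0492%), and 0 and 0 in EBs (0.00752% and 0.143%). The change of the siTdg effect between 48 h and 96 h had a median of -0.01 over 39 members and a smallest adjusted p of 0.99999 by limma. Leaving out single libraries moved these medians. At 48 h the median was 0.04 without replicate 1 of siTdg and 0.17 without replicate 1 of siC. At 96 h it was 0.35 and -0.45 without replicate 1 of siTdg and of siC, and -0.41 and 0.35 without replicate 2 of siTdg and of siC. In EBs it was 0.04 and -0.15 without replicates 1 and 2 of siTdg, and -0.33 and 0.09 without replicates 1 and 2 of siC. None of these medians kept its sign under every library left out. A library left out unbalances the replicate numbers between groups, so these shifts also hold the gap between replicates. With replicate number as a block, a pairing the labels do not state, limma called 1 member at 48 h, 0 at 96 h and 1 in EBs. Over all genes it called 2.3%, 0.123% and 1.13%.

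At 48 h the H2A and H2B genes lay on opposite sides of 0. H2A took 11.9 and 10.1 RPM with siTdg, against 20.4 and 9.40 with siC, and 0 of its 12 tested genes were above 0, with a median of -0.39. H2B took 6.36 and 9.89 with siTdg, against 5.55 and 7.06 with siC, and 10 of its 11 tested genes were above 0, with a median of 0.25. The low H2A ratio rests on replicate 1 of siC. Hist1h2ai was at 2.98 and 1.46 RPKM with siTdg, against 5.03 and 1.66 RPKM with siC, and Hist1h2ag was at 3.28 and 1.24 RPKM with siTdg, against 4.42 and 1.2 RPKM with siC. Hist1h2ah was at 2.29 and 1.65 RPKM with siTdg, against 3.51 and 2.51 RPKM with siC, without overlap. Hist1h2bc was at 3.5 and 4.26 RPKM with siTdg, against 2.80 and 2.38 RPKM with siC, also without overlap, and its log2 difference was 0.50 ± 0.25 (SE), with p of 0.0824 unadjusted and 1 adjusted by limma. Of 48 members with at least 20 reads 6 lay higher with siTdg without overlap and 5 lower (Hist1h1c, Hist1h2ah, Hist1h3b, Hist2h2ab and Hist2h2ac), against 9.4% and 10.4% of all genes. The authors' deposited tables had 26 of 59 members above 0 at 48 h, 26 of 59 at 96 h and 24 of 60 in EBs, with medians of -0.07, -0.09 and -0.10. In the authors' deposited tables no member was called in these 3 comparisons, against 1.35%, 0.144% and 0.0745% of all genes with an adjusted p, and 15 members had an adjusted p in EBs and none at 48 h or 96 h. Nor was any member at an unadjusted p under 0.05 there, where 1.33% of all genes were higher and 3.55% lower at 48 h, 1.26% and 1.7% at 96 h, and 1.53% and 0.633% in EBs.

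At 96 h the member with the smallest p, chosen for it, was Hist1h3b, at 0.377 and 0.288 RPKM with siTdg, against 0.666 and 0.989 RPKM with siC, a log2 difference of -0.66 ± 0.21 (SE) with p of 0.0173 unadjusted and 1 adjusted by limma. Hist1h2bc was at 3.05 and 4.12 RPKM with siTdg at 96 h, against 3.31 and 4.53 RPKM with siC, with overlap. Of 50 members with at least 20 reads at 96 h 2 lay higher with siTdg without overlap (Hist1h2bh and Hist1h3f) and 2 lower (Hist1h3b and Hist1h3e), against 5.27% and 5.57% of all genes. In EBs Hist1h2ah was at 0.785 and 1.38 RPKM with siTdg, against 1.57 and 3.39 RPKM with siC, a log2 difference of -0.87 ± 0.48 (SE) with p of 0.138 unadjusted and 0.99996 adjusted by limma. It lay lower with siTdg without overlap at 48 h and in EBs. Of 52 members with at least 20 reads in EBs 3 lay higher with siTdg without overlap (Hist1h2bc, Hist1h3f and Hist2h2ab) and 4 lower (Hist1h1b, Hist1h2ah, Hist1h4f and Hist1h4h), against 5.51% and 5.04% of all genes.

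Within a phase, siTdg was set against siC in the sorted cells. The siTdg and siC libraries there were scaled separately by the authors, so siRNA and scaling cannot be told apart. Counted gene lengths were equal in both to within 0.1% for all 19249 genes with reads. In G2M the members took 39.9 and 33.6 RPM with siTdg, against 46.7 and 33.7 with siC, a ratio of means of 0.914, and in G1 26.9 and 36.1 with siTdg, against 25.1 and 28.2 with siC, a ratio of 1.18. By limma 17 of 47 members were above 0 in G2M, with a median of -0.10, and 37 of 47 in G1, with a median of 0.16, against 0.01 and 0.00 over all genes. No member passed an adjusted p of 0.05 in either phase, where 1 gene, Tdg, did in each (0.00802%). At an unadjusted p under 0.05, 0 members were higher and 2 lower in G2M (1.72% and 0.345% of all genes), and 2 higher and 1 lower in G1 (1.95% and 1.48%). The G1 genes were Hist1h2bg at 0.74 and Hist1h2bf at 0.36, and Hist1h2bb at -0.58, and those in G2M Hist1h3a at -0.39 and Hist1h4h, named here for their p. Hist1h4h was at 0.626 and 0.873 RPKM in siTdg G2M, against 2.18 and 1.64 RPKM in siC G2M, which is 8 and 12 reads against 24 and 17, a log2 difference of -0.94 ± 0.18 (SE) with p of 0.00109 unadjusted and 0.99985 adjusted by limma. Its G1 levels were 0.425 and 0.483 RPKM with siTdg, against 0.621 and 0.841 RPKM with siC, on 5 and 5 reads against 9 and 13. Both phases were thus lower with siTdg without overlap. In unsorted ESCs Hist1h4h overlapped, at 0.243 and 0.869 RPKM with siTdg at 48 h, against 0.907 and 0.813 RPKM with siC. At 96 h it was at 0.240 and 0.993 RPKM with siTdg, against 0.0785 and 0.887 RPKM with siC. The median in G1 was 0.02 without replicate 2 of siTdg G1 and 0.37 without replicate 1 of siTdg G1; in G2M it was 0.11 without replicate 1 of siC G2M and 0.01 without replicate 2 of siTdg G2M.

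**Figure D4:**
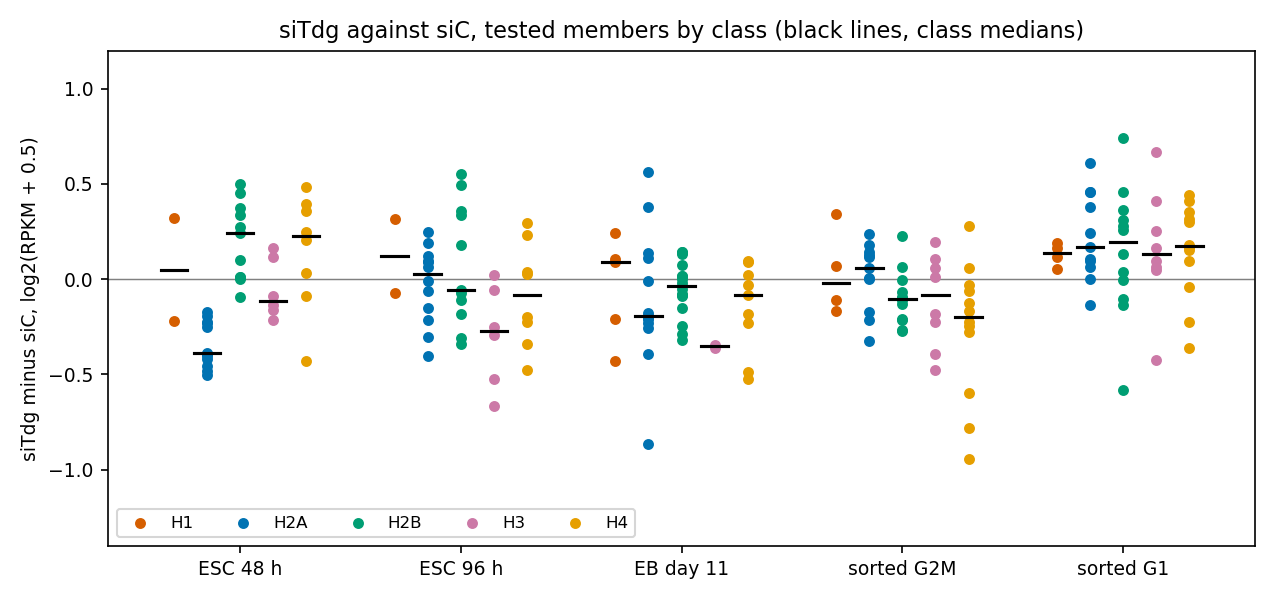
Points are members that passed the filter, with the siTdg minus siC difference in log2(RPKM + 0.5) on the y axis, in ESCs at 48 h and 96 h, in day 11 EBs and within sorted G2M and G1, by class, and black lines are class medians. Points lie on both sides of 0 in each comparison, with overall medians of -0.09, -0.06, -0.08, -0.10 and 0.16.

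Day 11 EBs had higher totals of these transcripts than ESCs, in large part from a few genes. The tables were scaled separately and material and batch cannot be told apart, so there is no test. Totals and class sums are given in RPM, and single genes in the RPKM of their own table. These scales can differ in order, since RPM follows a library's read total and RPKM its size factor. The size factors of the siC EB libraries were 1.63 and 0.639, on 38825128 and 21775039 reads. There Hist1h4i took 1.13 and 1.06 RPM but was at 2.29 and 3.06 RPKM. Totals of 105.2 and 75.6 with siTdg and 99.8 and 81.9 with siC in EBs stood over totals of 19.1 to 41.3 in unsorted ESCs. Of that, 4 genes, Hist1h1c, Hist1h2bc, Hist3h2a and Hist3h2ba, took 69.9 and 42.6 RPM in siTdg EBs and 63.0 and 43.3 in siC EBs, against 4.23 to 6.64 in unsorted ESCs. The other 64 members took 35.2 and 33.0 in siTdg EBs and 36.8 and 38.6 in siC EBs, against 14.4 to 34.7 in unsorted ESCs. These 4 genes were singled out after their values were seen.

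By class, H1 took 47.8 and 16 RPM in siTdg EBs and 41.2 and 17.9 in siC EBs, against 1.89 to 4.13 in unsorted ESCs. H2B took 37.0 and 35.2 in siTdg EBs and 35.8 and 36.8 in siC EBs, against 5.55 to 12.1 in unsorted ESCs. H3 took 2.17 and 1.54 in siTdg EBs and 2.32 and 1.93 in siC EBs, against 1.47 to 3.89 in unsorted ESCs, and so stayed within the ESC range. H4 took 3.79 and 3.99 in siTdg EBs and 4.59 and 4.46 in siC EBs, against 1.36 to 4.17 in unsorted ESCs, and H2A took 14.5 and 18.8 in siTdg EBs and 15.9 and 20.8 in siC EBs, against 6.94 to 20.4 in unsorted ESCs. Of 16 H2B genes with at least 20 reads all 16 had the higher mean in EBs with siTdg and with siC, while of H3 genes 2 of 9 did with siTdg and 1 of 10 with siC. Reads for this minimum were summed over EBs and ESCs, so a gene can enter through the material in which it is higher. Such counts describe the genes and are no test. Against the 4 unsorted ESC libraries with the same siRNA, both EB libraries lay above all of them for 22 of 54 members with siTdg and 27 of 56 with siC, and below for 5 with siTdg (Hist1h2af, Hist1h2ah, Hist1h2an, Hist1h3c and Hist1h3h) and 2 with siC (Hist1h3e and Hist1h3h), against 30.9% and 32.8% of all genes above and 29.1% and 29.5% below.

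Hist1h1c stood highest in EBs, at 51.1 and 20.4 RPKM with siTdg and 39.7 and 23.2 RPKM with siC, against 1.60 to 2.56 RPKM in unsorted ESCs. Hist1h2bc was at 23.3 and 22.8 RPKM in siTdg EBs and 19.8 and 22.4 RPKM in siC EBs, against 2.38 to 4.53 RPKM in unsorted ESCs. Hist3h2a was at 12.9 and 19.4 RPKM in siTdg EBs and 11.8 and 18 RPKM in siC EBs, against 0.554 to 2.29 RPKM in unsorted ESCs. All EB libraries lay above all ESC libraries for these 3 genes. Hist3h2ba, the H2B gene of the Hist3 group, was at 2.01 and 14.4 RPKM in siTdg EBs and 2.77 and 15.5 RPKM in siC EBs, against 0 to 0.835 RPKM in unsorted ESCs, and the EB replicates differed more than the siRNAs. Hist1h2ba, the testis H2B, was at 2.95 and 2.05 RPKM in siTdg EBs and 2.43 and 2.73 RPKM in siC EBs, above the ESC libraries too. The male germ cell markers summed to 0.184 to 0.303 RPKM in siTdg EBs and 0.191 to 0.220 RPKM in siC EBs, against 18.6 to 46.0 RPKM in unsorted ESCs, where nearly all of the sum was Dazl and Ddx4 and the other 3 genes, Acrv1, Tnp1 and Prm1, were at 0 to 0.0884 RPKM.

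In both EB groups Hist1h1c was higher in replicate 1 and Hist3h2ba higher in replicate 2. Replicate 2 of EBs also held more H3f3a, at 2467 RPKM against 426 RPKM in replicate 1 with siTdg and 3120 against 425 RPKM with siC, while markers of other cell types differed between replicates in both directions. The 4 erythroid markers, none of them at 0, summed to 11.3 to 734 RPKM in siTdg EBs and 4.98 to 320 RPKM in siC EBs, and the 5 yolk sac endoderm markers, none of them at 0, to 219 to 505 RPKM in siTdg EBs and 106 to 305 RPKM in siC EBs, with the higher sum in replicate 2. Col1a1, a collagen gene of the fibroblast list named here after its values were seen, was at 1992 RPKM in replicate 1 against 114 RPKM in replicate 2 with siTdg and 1640 against 176 RPKM with siC. The part of cell types in the histone values of EBs was not tested.

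The promoters of Hist1h1c and Hist3h2a are given for the genes that stood highest in EBs and have a window, in the same form and build as above.
Hist1h1c promoter, chr13:23738557-23738856, plus strand: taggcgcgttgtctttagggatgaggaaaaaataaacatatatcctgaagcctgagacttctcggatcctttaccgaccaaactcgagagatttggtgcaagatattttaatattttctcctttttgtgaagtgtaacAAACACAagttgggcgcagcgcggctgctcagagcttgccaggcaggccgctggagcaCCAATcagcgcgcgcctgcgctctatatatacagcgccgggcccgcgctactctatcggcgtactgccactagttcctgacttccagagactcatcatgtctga
Hist3h2a promoter, chr11:58954435-58954734, plus strand: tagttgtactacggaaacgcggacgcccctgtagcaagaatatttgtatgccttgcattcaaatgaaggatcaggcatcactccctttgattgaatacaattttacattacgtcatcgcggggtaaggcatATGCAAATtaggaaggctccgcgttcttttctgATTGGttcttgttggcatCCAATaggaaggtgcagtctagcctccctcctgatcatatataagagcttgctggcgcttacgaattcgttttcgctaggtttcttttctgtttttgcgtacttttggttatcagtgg
Hist1h1c holds AAACACA at -112 and CCAAT at -54, and no exact TATAAA, though the letters tatatata lie between CCAAT and the start. Hist3h2a holds CCAAT at -68, with CCAAT at -86 and ATTTGCAT at -119 on the opposite strand. Hist1h1e, the H1 gene whose promoter was shown above, was at 3.12 and 1.48 RPKM in siTdg EBs and 2.15 and 1.44 RPKM in siC EBs, against 0 to 0.583 RPKM in unsorted ESCs. Hist1h1d was at 2.84 and 2.35 RPKM in siTdg EBs and 2.46 and 2.28 RPKM in siC EBs, against 0.136 to 0.814 RPKM in unsorted ESCs. Hist1h4i, the highest H4 gene, was at 3.00 and 2.74 RPKM in siTdg EBs and 2.29 and 3.06 RPKM in siC EBs, against 0.489 to 1.19 RPKM in unsorted ESCs. The EB libraries lay above the unsorted ESC libraries for these genes as well. Hist1h1e in replicate 2 of either EB group, on 21 reads each, lay below replicate 1 of sorted siTdg G2M, at 1.61 RPKM, and of siC G2M, at 1.51 RPKM. Among H3 genes, Hist1h3g was at 0.526 and 0.337 RPKM in siTdg EBs and 0.511 and 0.871 RPKM in siC EBs, against 0.359 to 1.28 RPKM in unsorted ESCs, so the materials overlapped.

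**Figure D5:**
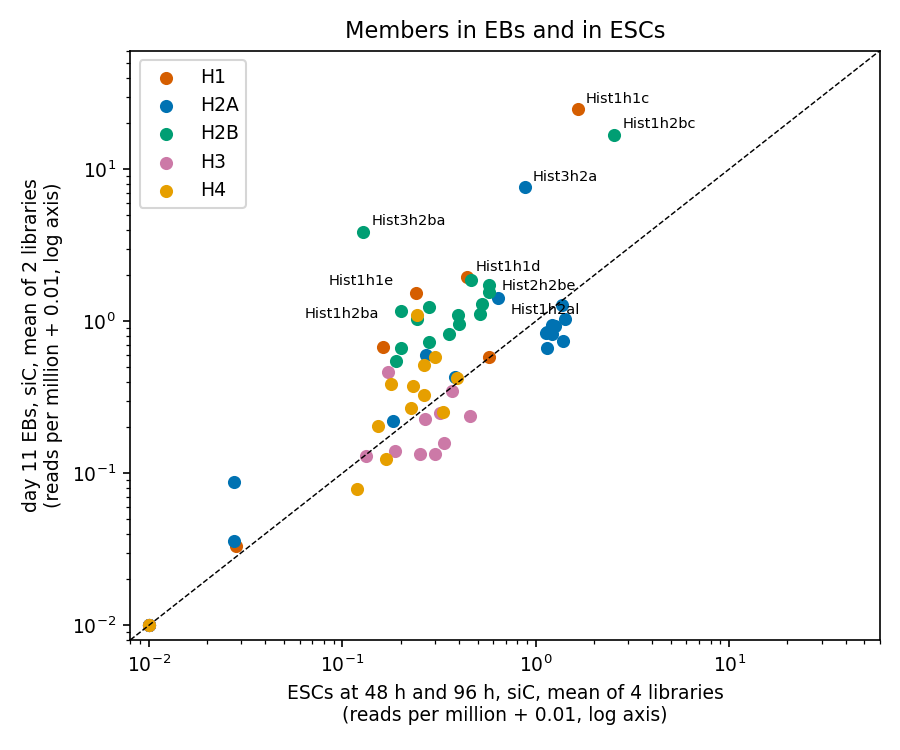
Each point is a member, coloured by class, with its mean over the 2 siC EB libraries (y axis) and over the 4 unsorted siC ESC libraries (x axis), both in RPM plus 0.01 on log axes. Hist1h1c, Hist1h2bc, Hist3h2a and Hist3h2ba stand far above the diagonal.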

How the data were processed

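The authors deposited expression values as RPKM, with a separately scaled table per pair of groups. The authors' result tables hold log2 fold changes with standard errors, a test score (the Wald statistic), p-values and adjusted p-values, and a signal column of mean normalised counts, with column names that DESeq2 gives, per the file headers. Tools named in the submitters' processing notes, without a role, are Bowtie, TopHat, DESeq2 and DiffBind, with build mm9. Annotation and counting tool were not given in the sources used here. At 0 h 4 per-sample columns could not be tied to samples and stay unused, and 17 gene names of the authors' 96 h table had become dates.

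Reads were recovered from the deposited RPKM with the authors' mean normalised counts, and 100.0% of values above 0 were whole to within 0.01 of a read in each library. RPM (reads scaled to the library's recovered total) and their 95% exact binomial (Clopper-Pearson) intervals use these totals. Intervals and floors (3 reads) cover counting error only, since no molecular identifiers are named. Groups, taken from the sample titles, were compared on log2(RPKM + 0.5) with limma 3.58.1 (R 4.3.3), which understates changes of low genes. Genes averaging at least 0.5 RPKM over a model's libraries entered, with eBayes and a trend, two-sided, Benjamini-Hochberg adjusted over all genes and called at 0.05. Separate models were fitted to the 8 unsorted ESC libraries, the 8 sorted libraries and the 4 EB libraries. The script was tested on simulated data.

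The members, gene lists and rule for named genes were chosen with earlier results of these data known. The rule names each called member, the 3 highest per class, testis types and genes outside the large cluster, and up to 3 members most raised and 3 most lowered per comparison whose libraries did not overlap and whose higher group reached 2 RPKM. Alternatives were other pseudocounts, filters, scalings and models, each library left out, and a replicate block. Promoters came from RefSeq (GRCm38.p6), and the genome of the files' build was not used here.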

Additional observations from a re-analysis of the deposited data

Results flagged for a closer look

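Hist1h3a had siTdg minus siC differences of opposite sign in the phases, with every library apart: -0.378 within G2M against 0.254 within G1, as differences of group means on the log2(RPKM + 0.5) scale. The limma test of that difference gave -0.65 with p of 0.0284 unadjusted and 0.99998 adjusted over all genes. Hist2h2ab had a siTdg minus siC difference of 0.577 in day 11 EBs against -0.738 in ESCs at 48 h, each without overlap of libraries. It was at 0.690 and 1.14 RPKM in siTdg EBs, against 0.527 and 0.367 RPKM in siC EBs, and at 0 and 0.314 RPKM with siTdg at 48 h, against 0.707 and 0.484 RPKM with siC. The difference between EBs and ESCs was not tested.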

How the results depend on the processing

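Replicate numbers of the labels do not name a shared culture or day, and with 2 numbers they were not taken to pair the libraries. Same-numbered libraries did deviate together across genes, with correlations of their deviations from the group means of 0.534 to 0.951. With a replicate block limma called 3 members for G2M over G1 with siTdg (Hist1h1e at an adjusted p of 0.0367, Hist1h2bb at 0.0428 and Hist1h2bk at 0.0477), 4 with siC (Hist1h2bf at 0.00837, Hist1h4h at 0.0205, Hist1h1e at 0.031 and Hist1h2bk at 0.036), 1 for siTdg over siC at 48 h (Hist1h2bc at 0.0477), 1 in EBs (Hist1h2ah at 0.0076) and 0 in the other 5 comparisons. Over all genes and in either direction, the replicate block gave 985 calls for G2M against G1 with siTdg, 614 with siC, 280 at 48 h, 15 at 96 h, 14 for 96 h minus 48 h, 150 in EBs, 2 within G1, 3 within G2M and 0 for the difference of phases.

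The median for G2M over G1 with siC was 0.804 with a pseudocount of 0.1, 0.837 with limma-voom on recovered reads and 0.289 for members averaging at least 2 RPKM. Leaving out each library in turn, where a lone library was assumed to vary like the other groups, called 0 members in every comparison. The medians then ranged from 0.115 to 0.461 for G2M over G1 with siTdg, 0.365 to 0.687 with siC, -0.52 to -0.057 for their difference, 0.021 to 0.37 within G1, -0.211 to 0.112 within G2M, -0.108 to 0.165 at 48 h, -0.45 to 0.353 at 96 h, -0.358 to 0.398 for 96 h minus 48 h and -0.327 to 0.093 in EBs. Hist1h1c in EBs, at 0.09 with all libraries, was at -0.289 without replicate 2 of siC and -0.56 without replicate 1 of siTdg, within a range of -0.56 to 0.743. The cause of these changes was not tested.

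With H1f10 counted in, an alternative added after seeing the data, the members' share of reads was 0.003434% with siTdg and 0.003651% with siC at 48 h, 0.00512% in siTdg G2M, 0.004472% in siTdg G1, 0.005193% in siC G2M and 0.003808% in siC G1. Without the member with most reads it was 0.00632% in siTdg EBs, 0.006598% in siC EBs and 0.002335% in siC G1. The other 252 values for whole comparisons and 301 for single members kept their side of the threshold and their direction or moved by less than the spread between replicates. That spread was wide, at 0.642 for the median at 96 h, so a median could change sign and still be counted here. For single members the size of a change was not judged. Few reads per member limit what a single gene can show.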
